A study of Mus musculus with 4 samples.

Results

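The genes described here build ribosomes: nucleolar proteins, assembly factors of the small and large ribosomal subunits, and subunits of RNA polymerase I (Pol I), the enzyme that transcribes ribosomal RNA. They were taken by name from a list of 42 symbols, of which 41 stood in the files, among 19564 symbols in all. Wdr43, a small subunit factor, was not matched by its symbol and is not analysed here. The 41 genes comprised 12 nucleolar proteins, 14 small subunit factors, 11 large subunit factors and 4 Pol I subunits. All 41 had at least 1 RPKM (a read count scaled by transcript length and library size) in at least 1 library, as did 9942 symbols of the series.

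Erythroid cells of E14.5 mouse fetal liver were stained for TER119, an erythroid surface antigen, and for CD71, the transferrin receptor, and sorted without culture into R2, R3, R4 and R5 in order of maturation. R2 was described by the submitters as proerythroblasts with early basophilic erythroblasts, R3 as early and late basophilic erythroblasts, R4 as mostly polychromatophilic and orthochromatophilic erythroblasts, and R5 as late orthochromatophilic erythroblasts with reticulocytes, which have lost their nucleus. The labels name no genotype or treatment, and the sources used here give neither the mouse strain nor the number of livers per sort. Polyadenylated RNA from each population gave 1 library, so differences between populations are given as values, without a test.

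Ribosome assembly begins in the nucleolus, where Pol I copies the ribosomal DNA into a long precursor RNA. Small nucleolar ribonucleoproteins (snoRNPs) modify and help to cut that precursor, and assembly factors, helicases and GTPases fold it onto ribosomal proteins in separate small and large subunit particles that are exported to the cytoplasm. Growing cells express these genes strongly, and the transcription factor MYC, which binds the E-box CACGTG, is a known activator of many of them. Maturing erythroblasts lose their nucleoli and later their nuclei, while reticulocytes go on translating globin with ribosomes made earlier.

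The promoter stretches of a few of these genes are shown first. RefSeq windows of 300 bases (250 before and 50 after the first listed start of each gene, build GRCm38.p6) were at hand for 36 of the 41 genes. The letters CACGTG, a palindrome and so the same on both strands, stood in 8 of the 36 windows, or 22.2%, against 11.1% of 6931 windows of genes past the 1 RPKM filter and 7.2% of all 27025 windows. In Utp18, Imp4 and Nop2 the E-box lay before the start, at bases -20, -121 and -60. The 150 bases before the start of these genes are given 5′ to 3′ with the E-box in capitals, followed by Nop56 and Polr1b, a snoRNP and a Pol I gene whose windows held none.
Utp18 chr11:93885767-93885916 minus strand: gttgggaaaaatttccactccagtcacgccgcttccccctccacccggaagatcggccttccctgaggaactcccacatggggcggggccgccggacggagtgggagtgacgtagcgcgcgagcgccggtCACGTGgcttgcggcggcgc
Imp4 chr1:34439679-34439828 plus strand: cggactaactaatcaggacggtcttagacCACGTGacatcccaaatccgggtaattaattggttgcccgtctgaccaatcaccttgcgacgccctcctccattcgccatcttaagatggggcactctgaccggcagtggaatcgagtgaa
Nop2 chr6:125131733-125131882 plus strand: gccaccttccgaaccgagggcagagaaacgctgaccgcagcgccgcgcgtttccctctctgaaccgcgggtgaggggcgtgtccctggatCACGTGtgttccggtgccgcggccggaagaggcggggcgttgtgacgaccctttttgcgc
Nop56 chr2:130274262-130274411 plus strand: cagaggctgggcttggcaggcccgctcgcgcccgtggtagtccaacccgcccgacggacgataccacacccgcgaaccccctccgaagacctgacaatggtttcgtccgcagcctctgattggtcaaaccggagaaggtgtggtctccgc
Polr1b chr2:129100846-129100995 plus strand: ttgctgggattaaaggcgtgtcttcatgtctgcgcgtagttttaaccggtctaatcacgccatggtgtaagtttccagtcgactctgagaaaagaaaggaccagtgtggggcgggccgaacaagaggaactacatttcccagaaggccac

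In the other 5 genes the E-box lay after the start, and those sites are given with up to 10 bases on each side, again with the E-box in capitals. Counted from 1 at the first base after the start, the E-box began at base 3 in Pes1, 24 in Nle1, 25 in Tsr1, 29 in Ltv1 and 38 in Utp20.
Pes1 chr11:3963967-3963992 plus strand: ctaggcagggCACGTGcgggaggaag
Nle1 chr11:82908357-82908382 minus strand: ggttctcctcCACGTGgggacgcagg
Tsr1 chr11:74898094-74898119 plus strand: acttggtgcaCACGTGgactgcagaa
Ltv1 chr10:13193094-13193119 minus strand: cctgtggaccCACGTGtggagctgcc
Utp20 chr10:88826765-88826787 minus strand: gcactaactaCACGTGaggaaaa

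Over the 8 genes with the E-box the median log2 ratio was -2.27 for R3 against R2, -1.07 for R4 against R3, 0.54 for R5 against R4 and -2.85 for R5 against R2. Over the 28 genes without it the medians were -2.43, -1.10, 0.69 and -2.74, so genes with the E-box had the lower median in R5 against R4 and R5 against R2 and the higher one in the other comparisons. GGAAGT, a form of the ETS motif, stood in 52.8% of the members' windows, 30.1% of those past the filter and 24.1% of all. The GC box GGGCGG stood in 69.4%, 66.6% and 35.9%, CCAAT in 41.7%, 39.6% and 37.9%, and TATAAA in 5.6%, 6.2% and 14.2%. The erythroid GATA letters GATAAG stood in 0 of the 36 windows, against 4.8% of those past the filter and 7.4% of all. All motifs were searched on both strands, and none is contained in another, though their ends can share bases. A match describes these letters and not a binding site, and no match says only that the letters are not in this window.

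All 41 genes had their highest level in R2 and their lowest in R4, and all were higher in R5 than in R4. R2 values ran from 9.86 RPKM for Polr1e to 592 for Npm1 with a median of 62.5, and the medians of the other libraries were 10.7 in R3 and 4.58 in R4, with 8.18 in R5. Summed over the 41 genes, the level was 3727, 668, 267 and 490 RPKM in R2, R3, R4 and R5. Among all 9942 genes past the filter 86.2% had their maximum in R2 and 72.6% their minimum in R4, so these directions alone are common in the series. The full order, R2 above R3 above R5 above R4, held for 39 of the 41 genes and for 57.4% of all genes. In bulk RNA, a smaller share of cells that express a gene and less RNA per cell cannot be told apart.

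**Figure D1:**
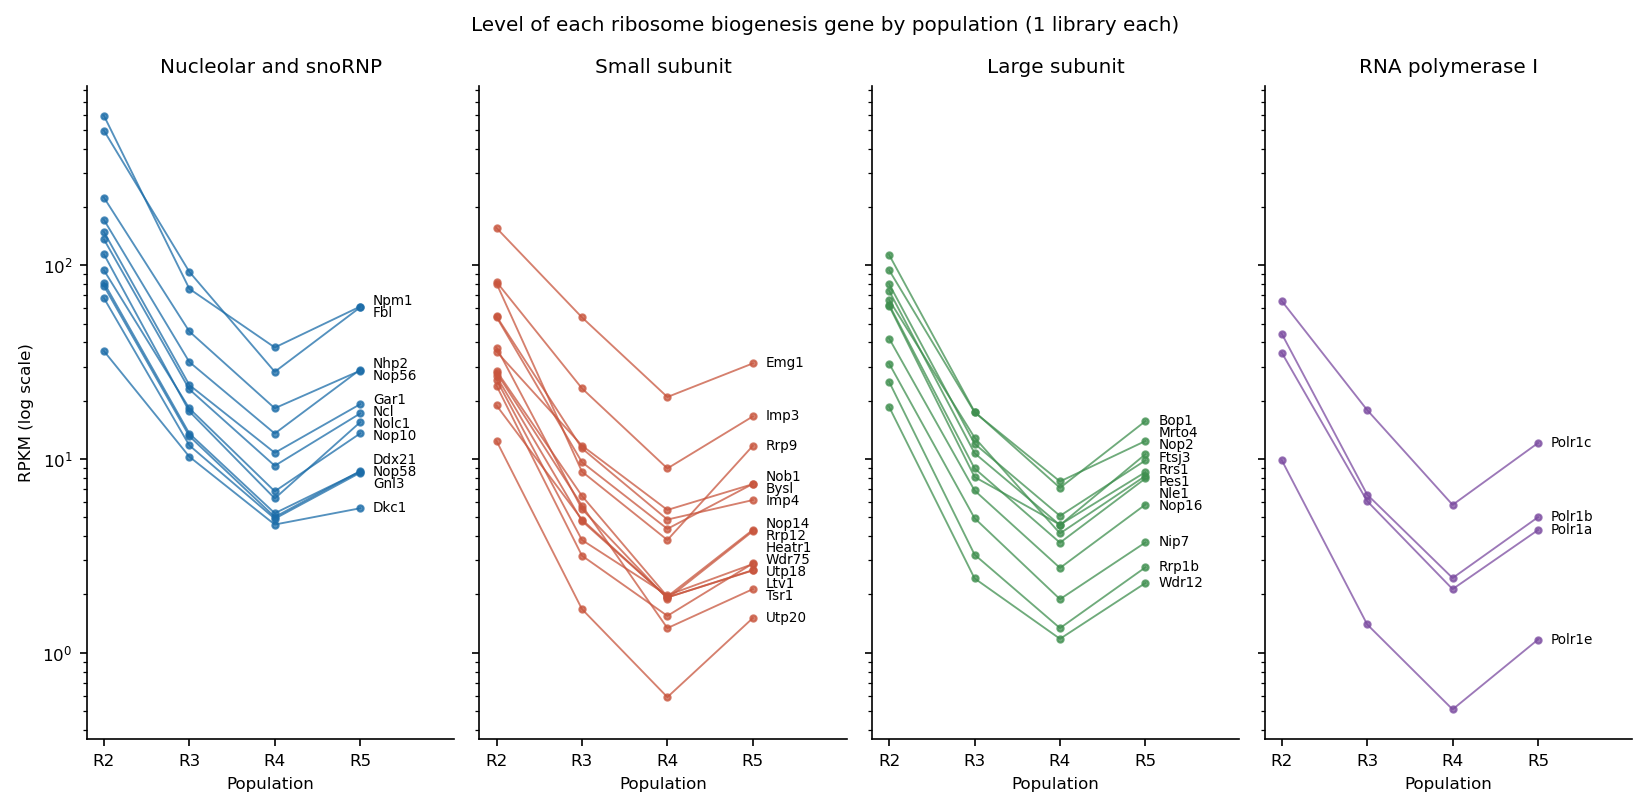
RPKM on a log axis against population, 1 line per gene and 1 library per population, in a panel for each of the 4 groups. Every line starts highest in R2, reaches its lowest point in R4 and is higher in R5, with Npm1 and Fbl at the top and Polr1e and Utp20 at the bottom.

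Globin transcripts made up 5.52%, 59.4%, 80.4% and 81.9% of all RPKM in R2, R3, R4 and R5, and a larger globin share lowers the RPKM of every other gene. Ratios are therefore also given after scaling each library by the median ratio of its genes (median scaling) and after removal of the globin genes. All 41 genes stayed highest in R2 under both rescalings, against 62.4% of all genes with median scaling and 69.7% without globins. With median scaling 34 stayed lowest in R4, against 37.2% of all genes, the exceptions being Npm1, Dkc1, Wdr75, Heatr1, Imp4, Wdr12 and Rrs1, and without globins all 41 did, against 56%. The full order held for 4 of 41 with median scaling, against 13.3%, and for 17 without globins, against 29.5%, since R5 then often stood above R3. The erythroid markers were present in every library, with all 8 at 1 RPKM or more, and Tfrc, which encodes CD71, stood at 52.1 RPKM in R2, 133 in R3 and 74.4 in R4, with 32.8 in R5. The step between low values implied 20700000 to 27400000 reads per library. With a principal transcript length per gene, the median member had an estimated 2931 reads in R2, 587 in R3 and 247 in R4, with 343 in R5, and Polr1e the fewest with 676, 107, 42 and 72. These estimates are too high for a gene of which fewer bases were counted.

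The nucleolar proteins were the most abundant group, with medians of 125, 20.6, 8.02 and 16.3 RPKM in R2, R3, R4 and R5. Npm1, nucleophosmin, an abundant nucleolar chaperone, stood at 592 RPKM in R2, 75.7 in R3 and 37.7 in R4, with 61.3 in R5. Npm1 has many processed pseudogenes in mammals, so its values depend on how reads that match several places were treated. Ncl, nucleolin, which binds precursor ribosomal RNA, stood at 136 RPKM in R2, 22.9 in R3 and 9.23 in R4, with 17.2 in R5. Both were far higher in R2 than in any later library, and R3 held 12.8% of the R2 level of Npm1 and 16.8% of that of Ncl.

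The box C/D snoRNPs place methyl groups on ribose, with fibrillarin (Fbl) as the methyltransferase and Nop56 and Nop58 as its core partners. Fbl stood at 496 RPKM in R2, 92.5 in R3 and 28.2 in R4, with 60.7 in R5. Its 4 values were whole multiples of 1 read over 97 bases, within 0.034 reads, which would give 1104, 230, 75 and 122 reads in R2, R3, R4 and R5, so Fbl may rest on far fewer reads than its length implies. Nop56 stood at 224 RPKM in R2, 45.5 in R3 and 18.3 in R4, with 28.6 in R5. Nop58 stood at 81.3 RPKM in R2, 13.5 in R3 and 5.25 in R4, with 8.61 in R5. The 3 genes kept their order of level, Fbl above Nop56 above Nop58, in every library, with Fbl at 6.10, 6.83, 5.37 and 7.05 times Nop58 in R2, R3, R4 and R5.

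The box H/ACA snoRNPs turn uridine into pseudouridine and share their core with telomerase. Dkc1, the pseudouridine synthase dyskerin, stood at 36.1 RPKM in R2, 10.3 in R3 and 4.59 in R4, with 5.57 in R5. Its partners had higher levels. Nhp2 stood at 172, 31.7, 13.5 and 28.9 RPKM in R2, R3, R4 and R5. Gar1 stood at 149, 24.1, 10.8 and 19.2 RPKM in R2, R3, R4 and R5. Nop10 stood at 94.3, 18.3, 6.81 and 13.6 RPKM in R2, R3, R4 and R5. Dkc1 was the nucleolar gene with the most left in R3, 28.5% of its R2 level, against 16.2% for Gar1, 18.5% for Nhp2 and 19.4% for Nop10. The gap between the catalytic subunit and Nhp2 was therefore narrower in R3 and R4, where Nhp2 stood at 3.08 and 2.95 times Dkc1, than in R2 and R5, where it stood at 4.76 and 5.20 times.

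The other nucleolar members followed the same course. Nolc1, a chaperone of snoRNPs, stood at 114 RPKM in R2, 17.6 in R3 and 6.26 in R4, with 15.5 in R5. Ddx21, an RNA helicase that acts on ribosomal RNA transcription and processing, stood at 78.3 RPKM in R2, 13.1 in R3 and 5.02 in R4, with 8.67 in R5. Gnl3, the GTPase nucleostemin, stood at 67.7 RPKM in R2, 11.8 in R3 and 4.92 in R4, with 8.50 in R5. In R4 Nolc1 was down to 5.49% of its R2 level, the lowest share of the nucleolar group, and in R5 it stood at 13.6%.

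The small subunit factors had lower levels, with medians of 32.2, 6.10, 1.97 and 4.28 RPKM in R2, R3, R4 and R5. Many belong to the processome, the large particle that forms on the new precursor RNA. Heatr1 stood at 23.9 RPKM in R2, 3.17 in R3 and 1.55 in R4, with 2.89 in R5. Utp20 stood at 12.4 RPKM in R2, 1.68 in R3 and 0.59 in R4, with 1.51 in R5. Wdr75 stood at 25.7 RPKM in R2, 3.82 in R3 and 1.98 in R4, with 2.87 in R5. All 3 are processome proteins, and R3 held 13.3%, 13.6% and 14.9% of the R2 level of Heatr1, Utp20 and Wdr75. Utp18 stood at 18.9 RPKM in R2, 4.87 in R3 and 1.93 in R4, with 2.67 in R5. Nop14, which works with the methyltransferase Emg1, stood at 28.5 RPKM in R2, 6.45 in R3 and 1.95 in R4, with 4.31 in R5. Utp18 and Nop14 kept more in R3, 25.8% and 22.6% of their R2 level.

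Proteins of the U3 snoRNP, which guides the first cuts around the small subunit RNA, differed among themselves. Rrp9, a U3-specific protein, stood at 80.5 RPKM in R2, 8.61 in R3 and 3.82 in R4, with 11.7 in R5. It had the lowest share of its R2 level in R3 of all 41 genes, 10.7%, and the highest ratio of R5 over R4, 3.06-fold. Imp3 stood at 82.0 RPKM in R2, 23.2 in R3 and 8.94 in R4, with 16.6 in R5. Imp4 stood at 54.5 RPKM in R2, 11.4 in R3 and 4.87 in R4, with 6.14 in R5. Imp3 was at 1.51 times the Imp4 level in R2 and at 2.04, 1.84 and 2.70 times in R3, R4 and R5. Imp3 in R5 thus held 20.2% of its R2 level, against 11.3% for Imp4.

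Emg1, a methyltransferase of small subunit RNA, was the most abundant gene of the group at 156 RPKM in R2, 53.9 in R3 and 20.9 in R4, with 31.2 in R5. Bysl, bystin, stood at 35.9 RPKM in R2, 11.7 in R3 and 5.46 in R4, with 7.42 in R5. These genes kept the most in R3 of all 41, 34.6% of the R2 level for Emg1 and 32.7% for Bysl. Other factors act late, on the particle that leaves the nucleus. Nob1, the nuclease that makes the last cut of small subunit RNA, stood at 54.1 RPKM in R2, 9.63 in R3 and 4.36 in R4, with 7.44 in R5. Rrp12, a factor of particle export in yeast, stood at 37.6 RPKM in R2, 5.52 in R3 and 1.90 in R4, with 4.24 in R5. Nob1 kept 17.8% of its R2 level in R3 and Rrp12 14.7%. Tsr1, a GTPase-like factor of late particles, stood at 27.9 RPKM in R2, 5.75 in R3 and 1.34 in R4, with 2.13 in R5. Ltv1, which acts at the same stage, stood at 26.7 RPKM in R2, 4.79 in R3 and 1.93 in R4, with 2.66 in R5. Tsr1 and Ltv1 had the lowest shares of the R2 level in R5 among the 41, 7.63% and 9.97%.

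Large subunit factors had medians of 62.5, 8.94, 4.13 and 8.18 RPKM in R2, R3, R4 and R5. Pes1, Bop1 and Wdr12 form 1 complex that is needed to process large subunit RNA. Bop1 stood at 113 RPKM in R2, 17.5 in R3 and 7.10 in R4, with 15.7 in R5. Pes1 stood at 66.2 RPKM in R2, 12.9 in R3 and 4.13 in R4, with 8.18 in R5. Wdr12 stood at 18.6 RPKM in R2, 2.42 in R3 and 1.18 in R4, with 2.29 in R5. Bop1 was at 6.02 to 7.24 times the Wdr12 level in all 4 libraries, so the order within the complex was the same throughout. Nop2, a methyltransferase of large subunit RNA, stood at 73.8 RPKM in R2, 10.7 in R3 and 4.56 in R4, with 10.6 in R5. Ftsj3, another methyltransferase, stood at 80.1 RPKM in R2, 11.99 in R3 and 5.09 in R4, with 9.84 in R5. Rrs1, which in yeast helps to bring the 5S particle into the large subunit, stood at 61.7 RPKM in R2, 8.08 in R3 and 4.58 in R4, with 8.56 in R5. Rrs1 and Rrp9 were the only members of the 41 higher in R5 than in R3 as deposited.

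The rest of the large subunit group was likewise highest in R2 and lowest in R4. Mrto4, which holds the place of a stalk protein during assembly, stood at 94.4, 17.4, 7.66 and 12.4 RPKM in R2, R3, R4 and R5. Nle1, Notchless, whose yeast counterpart is removed from the particle by an ATPase, stood at 62.5, 8.94, 3.70 and 7.94 RPKM in R2, R3, R4 and R5. Nop16 stood at 41.9, 6.88, 2.74 and 5.82 RPKM in R2, R3, R4 and R5. R3 held 18.5% of the R2 level of Mrto4, 14.3% of that of Nle1 and 16.4% of that of Nop16. Nip7 stood at 31.1, 4.95, 1.89 and 3.71 RPKM in R2, R3, R4 and R5. Rrp1b, a nucleolar protein tied to large subunit processing, stood at 25.03, 3.21, 1.34 and 2.76 RPKM in R2, R3, R4 and R5. Rrp1b and Wdr12 were the lowest of the large subunit group in every library.

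Pol I subunits had medians of 39.9, 6.31, 2.28 and 4.66 RPKM in R2, R3, R4 and R5. Polr1a, the largest catalytic subunit, stood at 35.4 RPKM in R2, 6.06 in R3 and 2.13 in R4, with 4.30 in R5. Polr1b, with which it forms the active site, stood at 44.3 RPKM in R2, 6.55 in R3 and 2.43 in R4, with 5.01 in R5. Polr1b was the slightly higher of the pair in every library. Polr1c, which Pol I shares with RNA polymerase III, stood at 65.4 RPKM in R2, 17.9 in R3 and 5.80 in R4, with 12.1 in R5. Polr1e, a Pol I-specific subunit, stood at 9.86 RPKM in R2, 1.40 in R3 and 0.51 in R4, with 1.17 in R5. The shared subunit kept 27.4% of its R2 level in R3, against 17.1%, 14.8% and 14.2% for Polr1a, Polr1b and Polr1e.

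**Figure D2:**
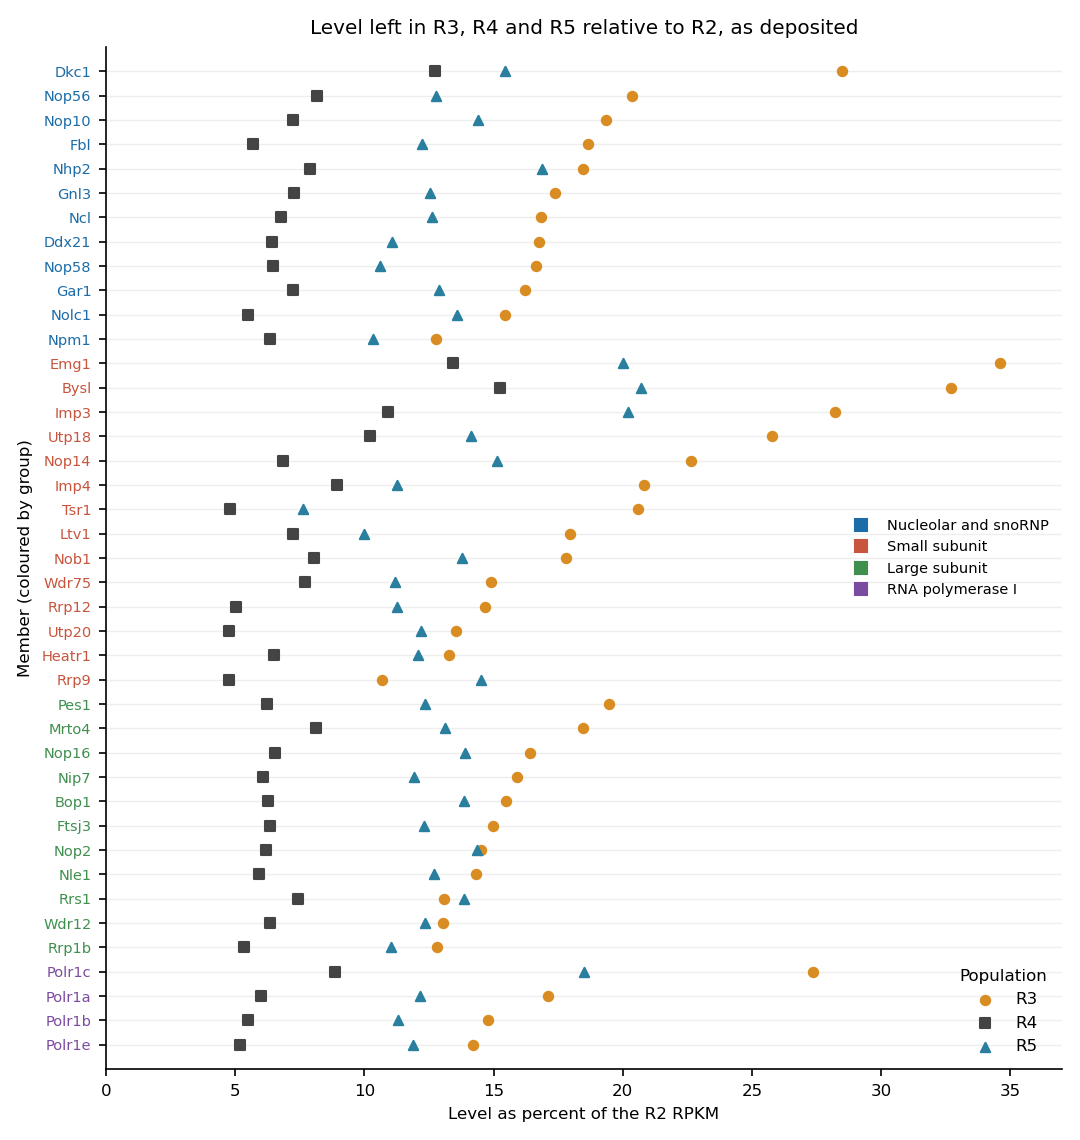
Level in R3, R4 and R5 as a percentage of the R2 RPKM for each of the 41 genes, as deposited, with gene names coloured by group. R4 is the leftmost point of every gene, Emg1 (34.6%) and Bysl (32.7%) lie farthest right in R3, and Rrp9 has R5 clearly right of R3.

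R3 against R2 asks what separates basophilic erythroblasts from the population before them, and it held most of the difference between R2 and R4. All 41 genes were at least 2-fold lower in R3 than in R2 on the log2(RPKM + 1) scale, a scale that understates the change of low genes, against 55.1% of all genes past the filter and 62.5% of those at 10 RPKM or more in R2. The members' median log2 ratio was -2.43, with a range from -3.08 for Rrp9 to -1.51 for Emg1, and the median of all genes was -1.09. Every member lay below that all-gene median. Within the groups the medians were -2.62 for large subunit, -2.46 for nucleolar, -2.27 for Pol I and -2.21 for small subunit genes. The SD of the log2 ratios was 0.35 across the 41 members and 0.99 across all genes.

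The difference kept its direction under both rescalings, with smaller ratios. With median scaling, 35 of 41 were at least 2-fold lower in R3 than in R2, against 18% of all genes and 24.5% of those at 10 RPKM or more in R2, with a median of -1.55 against -0.37 for all genes. The 6 others were Emg1 at -0.64, Bysl at -0.68, Dkc1 at -0.86, Imp3 at -0.91, Utp18 at -0.92 and Polr1c at -0.94. With globins removed, 38 of 41 were lower, against 22.8% of all genes, and the exceptions were Emg1, Bysl and Dkc1. As a share of the summed RPKM of all other than globin genes, the 41 genes took 0.304% in R3 against 0.989% in R2.

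R4 against R3 gave smaller ratios. As deposited, 29 of 41 were at least 2-fold lower in R4, against 32.1% of all genes and 51.7% of those at 10 RPKM or more in R2. The members' median was -1.09, against -0.77 for all genes and -1.02 for those at 10 RPKM or more in R2, and 35 of 41 lay below the median of all genes. The lowest ratios were those of Fbl at -1.68 and Tsr1 at -1.53. With median scaling 0 of 41 were 2-fold lower, against 0.382% of all genes, and the median was -0.20 against -0.06 for all genes. With globins removed 2 of 41 were lower, Fbl and Tsr1, against 2.83%. Of the log2 difference between R2 and R4 as deposited, a median of 68.7% over the members lay in the first step, from 53.3% for Emg1 to 79.9% for Rrs1. The first step was also the larger for all genes, with medians of -1.09 and then -0.77. These shares rest on log2(RPKM + 1), which shrinks the second step most for low genes.

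R5 against R4 ran the other way, and all 41 genes were higher in R5, as were 76.2% of all genes. The median log2 ratio was 0.70, from 0.23 for Dkc1 to 1.40 for Rrp9, against 0.27 for all genes, and 40 of 41 lay above that all-gene median, Dkc1 being the exception. At least 2-fold higher were 6 of 41, against 3.97% of all genes and 5.56% of those at 10 RPKM or more in R2. These were Rrp9 at 1.40, Nolc1 at 1.18, Fbl at 1.08, Nop2 at 1.06, Nhp2 at 1.04 and Bop1 at 1.04. For Rrp9 the fold of R5 over R4 was 3.06, with a 95% exact (Clopper-Pearson) interval from the implied reads of 2.55 to 3.70, and for Dkc1 it was 1.21, with an interval of 1.04 to 1.42. Such intervals lay above 1 for all 41 genes, but they cover counting error only. They rest on annotated lengths, or on the 97 bases for Fbl. For a gene of which fewer bases were counted than its annotated length, the interval is too narrow and could reach 1. No member was 2-fold lower in R5, against 0.604% of all genes and 0.502% of those at 10 RPKM or more in R2.

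The higher R5 values held for most members under rescaling. With median scaling 39 of 41 were higher in R5 than in R4, the exceptions being Dkc1 at -0.08 and Imp4 at -0.03, against 57.2% of all genes, and 1 member, Rrp9, was 2-fold higher, against 1.75%. With globins removed all 41 were higher, against 66.9% of all genes, and Rrp9 and Nolc1 were 2-fold higher, against 2.98%. The 41 genes took 0.310% of the summed RPKM outside globins in R5 against 0.193% in R4. Most markers of other cell types were higher in R5 than in R4 as well, as were 76.2% of all genes as deposited. All 10 granulocyte markers were, with a median log2 ratio of 0.90, or 0.54 with median scaling, beside the members' 0.70 and 0.49. The 7 hepatocyte markers, all higher, had a median of 1.03, or 0.67 with median scaling, and the 6 megakaryocyte markers, all higher, one of 1.29, or 1.18. Of 8 macrophage markers 6 were higher, with a median of 0.47, and with median scaling 5 were, with a median of 0.21. All 4 lymphoid markers past the filter were higher, with a median of 0.34, or 0.22 with median scaling. Of the 5 lymphoid markers, 4 were below 1 RPKM in R4 and 3 in R5. Of the 8 erythroid markers, 7 were lower in R5 than in R4 and 1 was higher. Their median was -0.18, or -0.55 with median scaling. The part of the markers of other cell types in the higher R5 values was not tested.

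**Figure D3:**
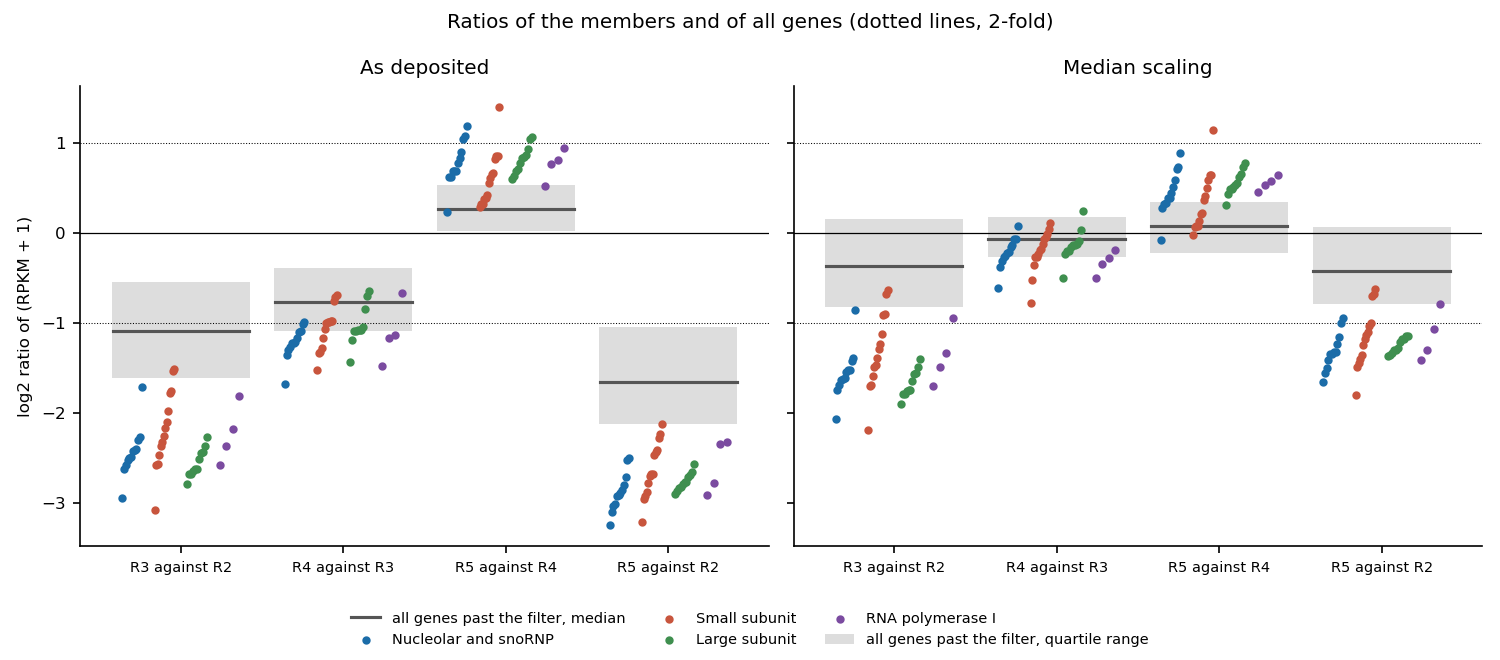
Log2 ratio of (RPKM + 1) of each member in 4 comparisons, as deposited (left) and with median scaling (right), with the quartile range and median of all 9942 genes in grey. Most members lie below the grey box for R3 against R2 and R5 against R2 in both panels, while for R5 against R4 as deposited 40 of 41 lie above its median line.

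Over the whole course, R5 against R2, all 41 genes were at least 2-fold lower, against 76.9% of all genes and 85.4% of those at 10 RPKM or more in R2. The median log2 ratio was -2.78, against -1.65 for all genes, with Npm1 lowest at -3.25 and Bysl highest at -2.13. With median scaling 36 of 41 were lower, against 13.7% of all genes and 20.2% of those at 10 RPKM or more in R2, the exceptions being Bysl, Imp3, Emg1, Polr1c and Nhp2. With globins removed 40 of 41 were lower, against 29.8%, and Bysl was the exception at -0.95. The members in R5 held a median of 12.6% of their R2 level, from 7.63% for Tsr1 to 20.7% for Bysl.

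With R2 left aside, R5 and R3 were close. Tsr1 alone, at -1.11, was at least 2-fold lower in R5 than in R3, against 13.1% of all genes and 17.6% of those at 10 RPKM or more in R2. The sign of the median turned with the scaling: it was -0.34 as deposited, 0.27 after median scaling and 0.05 without globins, against -0.47, 0.02 and -0.15 for all genes. R5 was above R3 in 2 of 41 members as deposited, 35 after median scaling and 24 without globins, against 16.7%, 52.3% and 37% of all genes.

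The sums of granulocyte, lymphoid and macrophage markers were also highest in R2. The 10 granulocyte markers summed to 6127, 426, 234 and 469 RPKM in R2, R3, R4 and R5, none was at 0 in any library, and Mpo, myeloperoxidase, stood at 1966 RPKM in R2, 95.2 in R3 and 59.1 in R4, with 146 in R5. S100a9 stood at 1026, 98.9, 53.9 and 83.0 RPKM in R2, R3, R4 and R5. Prtn3 stood at 968, 57.9, 31.1 and 75.9 RPKM in R2, R3, R4 and R5. All 10 were at least 2-fold lower in R3 than in R2, against 55.1% of all genes, with a median of -3.49. The 5 lymphoid markers summed to 83.2, 8.52, 5.11 and 8.46 RPKM in R2, R3, R4 and R5, and the 8 macrophage markers to 89.7, 49.5, 20.6 and 48.7. The 6 megakaryocyte markers summed to 38.2, 42.01, 22.6 and 67.7 RPKM, and the 7 hepatocyte markers to 216, 525, 180 and 386. None of these lists had a member at 0. The megakaryocyte sum was highest in R5 and the hepatocyte sum in R3. Single macrophage markers did not all follow their sum. As deposited, 1 of 8 was higher in R5 than in R2, against 759 of all 9942 genes. With median scaling 5 of 8 were higher in R3 than in R2, against 3102 of 9942. In R3, 3 of the 5 lymphoid markers were below 1 RPKM. With median scaling all 10 granulocyte and the 4 lymphoid markers past the filter stayed at least 2-fold lower in R3 than in R2. The share of all genes was 18%. The part of these markers in the lower R3 values of the ribosome genes was not tested.

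The rest of the ribosome assembly pathway, from lists of further factors, differed in the same direction, with smaller median ratios. Of 36 other small subunit factors 35 were at least 2-fold lower in R3 than in R2, and of 40 other large subunit factors 39 were, against 55.1% of all genes, with medians of -1.97 and -2.06. With median scaling 26 of 36 and 28 of 40 were lower, against 18% of all genes. Among small subunit factors at 10 RPKM or more in R2 or R5, the lowest ratios of R5 against R2 were those of Aatf at -3.00 and Lyar at -2.99, and the highest those of Utp3 and Ddx47, both at -1.60. Among large subunit factors Ddx18, a helicase, was lowest at -3.14 and Mki67ip next at -2.85. Nol12 was at -1.68, and Sbds, which releases a factor from the finished large subunit in the cytoplasm, was highest at -0.95. The ratio of Sbds turned to 0.57 with median scaling and 0.24 without globins. Its levels were 30.8, 20.4, 11.8 and 15.4 RPKM in R2, R3, R4 and R5. Sbds was the only factor of that list not at least 2-fold lower in R5 than in R2 as deposited.

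Of 7 snoRNP assembly factors all 7 were at least 2-fold lower in R3 than in R2, with a median of -1.87, and of 13 exosome genes, whose complex trims ribosomal RNA, 12 were, with a median of -1.74, against 55.1% of all genes. For R5 against R2, Ruvbl2 and Ruvbl1, ATPases that load snoRNP proteins, were at -2.97 and -2.47, while Shq1, a chaperone of dyskerin, was at -2.32 and Pih1d1 at -1.80. In the exosome Exosc5 was lowest at -2.65 and Exosc10, its nuclear nuclease, next at -2.63, with Exosc9 at -1.92 and Mphosph6 highest at -1.81. With median scaling 3 of 7 and 5 of 13 were 2-fold lower in R3 than in R2, against 18% of all genes.

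The log2 ratios of R3 against R2 ran from -2.59 for Polr1b to -1.81 for Polr1c over the 4 Pol I members, and from -2.77 for Cd3eap to -0.89 for Ubtf over 10 further Pol I genes. Of those 10, 8 were at least 2-fold lower in R3 than in R2, against 55.1% of all genes, with a median of -1.73. With median scaling 4 of 10 were, against 18%, with a median of -0.86. The exceptions as deposited were Ubtf and Ttf1. Ubtf, which bends ribosomal DNA for Pol I, stood at 83.5 RPKM in R2, 44.5 in R3 and 19.4 in R4, with 26.6 in R5. Ttf1, the terminator protein, stood at 6.08 RPKM in R2, 2.81 in R3 and 1.26 in R4, with 0.88 in R5. Ubtf thus kept a log2 ratio of -0.89 in R3 against R2 and -1.61 in R5 against R2. Rrn3, which brings Pol I to the promoter and is a target of growth signals, stood at 31.4 RPKM in R2, 7.12 in R3 and 2.41 in R4, with 4.52 in R5. Cd3eap, a Pol I subunit, stood at 19.0 RPKM in R2, 1.93 in R3 and 0.98 in R4, with 2.52 in R5. The R5 against R2 ratios of Rrn3 and Cd3eap, -2.55 and -2.51, lay within the range of the members, and that of Ubtf did not.

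The other Pol I subunits had their maximum in R2 and their minimum in R4 like the members. Polr1d, shared with RNA polymerase III, stood at 81.9, 26.1, 9.54 and 21.6 RPKM in R2, R3, R4 and R5. Znrd1 stood at 25.9, 6.52, 3.18 and 5.01 RPKM in R2, R3, R4 and R5. Twistnb stood at 9.71, 3.17, 0.9 and 2.13 RPKM in R2, R3, R4 and R5. Subunits of the Pol I promoter factor were also highest in R2. Taf1c stood at 23.4, 5.13, 2.41 and 4.20 RPKM in R2, R3, R4 and R5. Taf1d stood at 10.1, 2.04, 0.54 and 1.02 RPKM in R2, R3, R4 and R5. Taf1b stood at 4.42, 1.69, 0.34 and 0.18 RPKM in R2, R3, R4 and R5. Taf1b and Ttf1 were lower in R5 than in R4, at -0.18 and -0.27, where all 41 members were higher.

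Genes of the other polymerases gave a comparison within the same class of enzyme. The median of R3 against R2 was -2.27 for the 4 Pol I members, against -1.25 over 7 subunits of RNA polymerase II and -1.26 over 20 subunits and factors of RNA polymerase III. With median scaling the medians were -1.42 for the Pol I members, -0.40 for polymerase II and -0.42 for polymerase III. The 5 subunits shared by all polymerases had a median of -1.79 as deposited and -0.91 with median scaling. Over R5 against R2 these lists were closer, at -2.56 for the Pol I members against -2.27 for polymerase II and -2.02 for polymerase III as deposited. The 10 further Pol I genes had a median of -2.18, or -0.77 with median scaling, beside -2.27, or -0.73, for polymerase II. Polr2b and Polr2g were at -2.52 and -2.42, Polr2j at -1.82, and Polr2c highest at -0.95, which turned to 0.61 with median scaling and 0.27 without globins. In the polymerase III list Gtf3a and Polr3e were lowest at -2.76 and -2.74, and Polr3gl and Brf2 highest at -1.38 and -1.31, with Brf2 turning to 0.08 with median scaling. Of the shared subunits with at least 10 RPKM, Polr2h was at -2.80, Polr2f at -2.40 and Polr2e at -2.37. Among all 5, 1 below that level was higher in R5 than in R2, at 0.09, or 1.05 with median scaling. The other 4 were lower. With 1 library per population the difference between these lists was not tested.

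**Figure D4:**
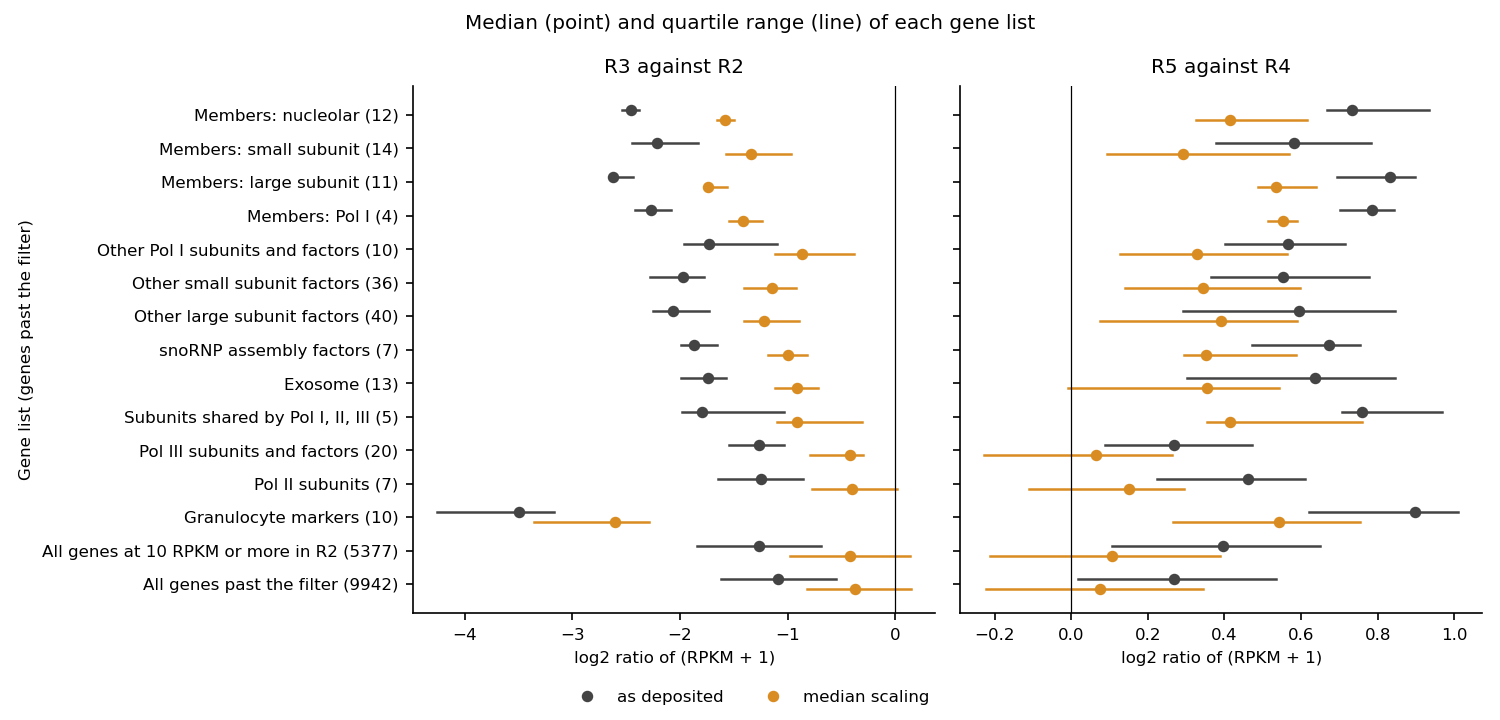
Median (point) and quartile range (line) of the log2 ratio of each gene list for R3 against R2 (left) and R5 against R4 (right), as deposited in grey and with median scaling in orange. The member groups lie left of the other assembly lists and of the polymerase II and III lists for R3 against R2, and the granulocyte markers lie farther left still.

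Myc, the gene of the E-box factor named above, stood at 118 RPKM in R2, 15.8 in R3 and 7.21 in R4, with 13.5 in R5. Its log2 ratios were -2.83 for R3 against R2, -1.03 for R4 against R3 and 0.82 for R5 against R4, and -3.03 for R5 against R2, all within the range of the 41 members. Myc and the members are measured in the same 4 libraries and share their scaling.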

How the data were processed

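RNA of 4 sorted populations was enriched for polyadenylated transcripts and sequenced on a Solexa cell, per the labels' protocols. The authors deposited 1 RPKM value per gene symbol, to 2 decimals. They name mm9 as the build, per the submitters' processing notes. What aligner, counting program, annotation and lengths they used is not given in the sources used here. Members and lists were chosen with earlier results of these data known. The named genes were every member in the files, all further Pol I genes, and the 2 highest and 2 lowest ratios of R5 against R2 in each other pathway list among genes at 10 RPKM or more in R2 or R5, with Tfrc, Myc and the 3 granulocyte markers highest in R2.

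Genes that reached 1 RPKM in any library were kept, and log2 ratios of RPKM + 1 were taken and called at 2-fold. With 1 library per population no test was made. Median scaling divided each library by the median ratio to the geometric mean over 2745 genes at 5 RPKM or more in every library. The background at 10 RPKM or more in R2, the complexes and the motifs were chosen after seeing the data. Reads were implied from whole steps between values of genes with few countable bases. For R3 a step 0.5 times the size gave 92.5% even counts over 106 genes, against 44.3% in R2, so the larger step was used. Lengths came from GENCODE principal transcripts of GRCm38, and no coordinates of the 2 builds were mixed. The depth of 20700000 to 27400000 reads limits the precision of low genes, and intervals cover counting error only. The ratio and call steps were tested on simulated reads with counting error only. Median scaling was checked only on 1 library multiplied by known factors, without noise. The other steps were not tested. Python 3.11.15, pandas 2.3.3, numpy 2.4.6, scipy 1.17.1 and matplotlib 3.10.9 were used.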

Additional observations from a re-analysis of the deposited data

How the results depend on the processing

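All 41 members stayed at least 2-fold lower in R3 and in R5 than in R2 with pseudocounts of 0.1 and 5 RPKM. The same held without a filter and with a filter of 5 RPKM. That was so by construction, since all 41 pass these filters and a filter does not change a ratio. For R3 against R2 the share of all genes was 64.1% and 29.9% with these pseudocounts, 28% without a filter and 59.7% with the filter. For R5 against R2 it was 84%, 47.8%, 39.1% and 82.9% in the same order. After median scaling 35 and 36 members were lower, against 18% and 13.7% of all genes. Without globins 38 and 40 were, against 22.8% and 29.8%. For R4 against R3, where 29 were lower as deposited (32.1% of all genes), the count was 37 with a pseudocount of 0.1 (59.2%), 6 with a pseudocount of 5 (9.76%), 0 with median scaling (0.382%) and 2 with globins removed (2.83%). For R5 against R4, where 6 were at least 2-fold higher (3.97%), it was 14 with a pseudocount of 0.1 (16%), 0 with a pseudocount of 5 (0.795%), 1 with median scaling (1.75%) and 2 with globins removed (2.98%). A larger pseudocount shrinks the ratios of low genes by construction. The median of all genes for R3 against R2 was -1.09 as deposited, -0.37 after median scaling and -0.47 without globins. It was smaller in size under both rescalings and stayed negative. Median scaling was set on the 2745 genes at 5 RPKM or more in every library. It therefore does not centre the median of all genes. Setting R5 against R3 in place of R5 against R2, a choice made after seeing the data, left 1 member lower, against 13.1% of all genes. No called ratio of a member changed sign under these settings. No paired analysis was possible because each population has 1 library. Low reads limit Polr1e most, and no replicate gives the spread between sorts.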
